A study of Mus musculus with 8 samples.

Results

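Fatty acid oxidation genes and targets of the nuclear receptor PPARα were examined in ileal crypt cells of C57BL/6 mice by RNA sequencing. The set was chosen by gene name and holds 32 genes, all present among the 55487 named genes of the table and all abundant enough to be tested. It comprises the receptor gene Ppara itself, 15 mitochondrial enzymes, 5 peroxisomal enzymes, a pair of isomerases found in both compartments, and genes of fatty acid activation, thioesterases and other PPARα targets. The CPT-11 group was given CPT-11, also called irinotecan and turned in the body into a topoisomerase I inhibitor, at a dose of 20 mg/kg over 7 days, and the other group was given vehicle. Each group had 4 libraries. All mice were C57BL/6, and the labels give no genotype, age or sex for either group. Crypts were freed from the ileum with EDTA and dissociated with trypsin, and no sort is described, so cells of other kinds can be present. Nothing in the labels ties a library to a mouse of its own. The p-values therefore reflect only how these libraries vary, and part of that may be technical.

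Fatty acids are first joined to coenzyme A by acyl-CoA synthetases. Long chains then cross into mitochondria through the carnitine shuttle, where a cycle of dehydrogenation, hydration, a further dehydrogenation and thiolysis shortens them and hands electrons to the electron transfer flavoproteins. Peroxisomes run a like cycle with their own enzymes and take very long chains and other chains that mitochondria handle poorly. PPARα is a fatty acid sensor that binds DNA with RXR at repeats of a hexamer spaced by a single base (DR1), and in the small intestine it is known as an activator of genes of fatty acid uptake and oxidation.

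Promoter sequences are shown where the results turn on genes that share a start region or are near copies of each other. They span 250 bases before to 50 bases after the start site and come from RefSeq on GRCm38.p6. That source had 29 promoters for 28 of the 32 genes. Angptl4, Acaa2, Decr1 and Hsd17b4 had none there, so the search for DR1 below does not cover them. The peroxisomal thiolase genes Acaa1b and Acaa1a lie in the same part of chromosome 9. Their promoters are at chr9:119157044-119157343 on the minus strand for Acaa1b and at chr9:119341044-119341343 on the plus strand for Acaa1a.
Acaa1b: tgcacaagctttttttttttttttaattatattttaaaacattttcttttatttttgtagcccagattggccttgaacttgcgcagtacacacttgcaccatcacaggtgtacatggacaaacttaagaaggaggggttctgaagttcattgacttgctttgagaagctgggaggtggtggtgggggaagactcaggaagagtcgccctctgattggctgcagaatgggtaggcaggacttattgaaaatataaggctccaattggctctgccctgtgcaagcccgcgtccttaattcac
Acaa1a: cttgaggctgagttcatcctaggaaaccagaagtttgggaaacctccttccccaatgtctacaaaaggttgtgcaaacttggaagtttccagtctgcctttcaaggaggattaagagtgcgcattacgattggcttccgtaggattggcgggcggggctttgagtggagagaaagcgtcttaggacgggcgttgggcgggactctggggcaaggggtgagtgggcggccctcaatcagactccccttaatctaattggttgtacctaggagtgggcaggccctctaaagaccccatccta
The promoters matched at 44.7% of the aligned bases, with a longest shared run of 8 bases, whereas the longest coding transcripts of the pair matched at 91.9%. The 2 genes are thus near copies in their transcripts and much less alike in these start regions.

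Hadha and Hadhb, which encode the subunits of the mitochondrial trifunctional protein, are transcribed in opposite directions from start sites 273 bases apart in RefSeq. GENCODE M21 places the gene boundaries closer together, at 30155162 for Hadha and 30155248 for Hadhb. Their promoters overlap over the 228 bases at chr5:30155003-30155230, given on the plus strand, because both genes are read with respect to this one stretch.
Hadha and Hadhb: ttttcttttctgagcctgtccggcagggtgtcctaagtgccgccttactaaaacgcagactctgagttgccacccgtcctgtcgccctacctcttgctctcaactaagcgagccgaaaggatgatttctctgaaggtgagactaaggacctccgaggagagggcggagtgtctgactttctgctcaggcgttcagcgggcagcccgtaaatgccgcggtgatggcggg
The DR1 motif was searched as AGGTCANAGGTCA on both strands, with N any base, and it does not overlap another searched motif. It was found exactly in 0 of the 29 promoters, against 0.0396% of all 32851 promoters of the same length. With at most 2 of its 12 fixed bases changed, it was found in 2 of the 29, in Plin2 and Etfa, against 3.86% of all promoters. With at most 3 changed, it was found in 7 of the 29, against 24.6% of all promoters (this limit and the others were compared after the matches were seen). The matches in Plin2 (chromosome 4) and Etfa (chromosome 9) are shown in capitals. Both were on the strand opposite to the gene and started 225 and 77 bases before the start site.
Plin2: agctttcaGGACCCCTGACCTaagtcagac
Etfa: gcacacccTTACCTTTGCCCTactcccaag
Neither Plin2 nor Etfa passed the test of expression described next. A match is a description of letters in a window, and these windows do not cover enhancers.

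Total counts ranged from 20790164 to 23479121 per library. Levels are given as CPM, each gene's count relative to its library's total after TMM scaling. A gene was called changed at an adjusted p below 0.05 in edgeR's quasi-likelihood test, adjusted by Benjamini-Hochberg over the 14011 genes tested, and fold changes are CPT-11 over vehicle. The crypt label was matched by Paneth cell markers (Lyz1 at 229015 or more counts in every library) and by the stem cell marker Olfm4 (4518 counts or more). Markers of villus enterocytes were also abundant and stood higher on average with CPT-11. Their summed level was 22371 to 55169 CPM in CPT-11 libraries and 15894 to 24101 CPM in vehicle libraries, and 25 of the 26 had a positive fold change, of which 2 passed the test. The stem cell list moved the other way, with 5 of 9 genes lower by the test and a summed level of 513 to 813 CPM in CPT-11 libraries and 1653 to 1967 CPM in vehicle libraries. Of the other lists, 4 of 9 lymphocyte genes and 2 of 7 tested macrophage and dendritic cell genes were called higher, and none of 7 Paneth cell, 4 tested stromal, 2 tested endothelial, 3 tested erythroid and 1 tested adipocyte genes was called. The part of this shift in cell make-up in the results that follow was not tested. In these bulk samples, fewer cells of a type and less RNA per cell cannot be told apart.

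The CPT-11 libraries were less alike than the vehicle libraries. Spearman correlations across genes between libraries of a group, which describe the libraries since genes are not replicates, were 0.931 to 0.988 for CPT-11 and 0.987 to 0.990 for vehicle. CPT-11 replicates 2 and 4 had the strongest loss of signal with gene length, with slopes of log2 CPM on log2 length of -0.317 and -0.130, against 0.0115 to 0.140 in the other 6 libraries. Values without these 2 libraries are given where they changed a call or a sign, and for some other genes.

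Across the 32 genes, 3 rose with CPT-11 (Acaa1b, Angptl4 and Acadl) and 1 fell (Acsl1). That is 9.38% higher and 3.12% lower, where 2.98% and 2.52% of all genes tested were called higher and lower. The groups did not overlap in 3 genes that were higher in every CPT-11 library and in 5 that were lower in every one. These are 9.38% and 15.6% of the set, against 8.43% and 10.1% of all genes. The median log2 fold change was -0.0069 over the set and 0.01 over all genes tested, with 16 genes above 0 and 16 below. In the set, 8 of the 32 genes (5 higher and 3 lower) had an unadjusted p below 0.05 in edgeR's test. Over all genes tested, 3442 of 14011 did (1873 higher and 1569 lower), a share close to that of the set. A missed call does not show that a gene was unchanged.

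**Figure D1:**
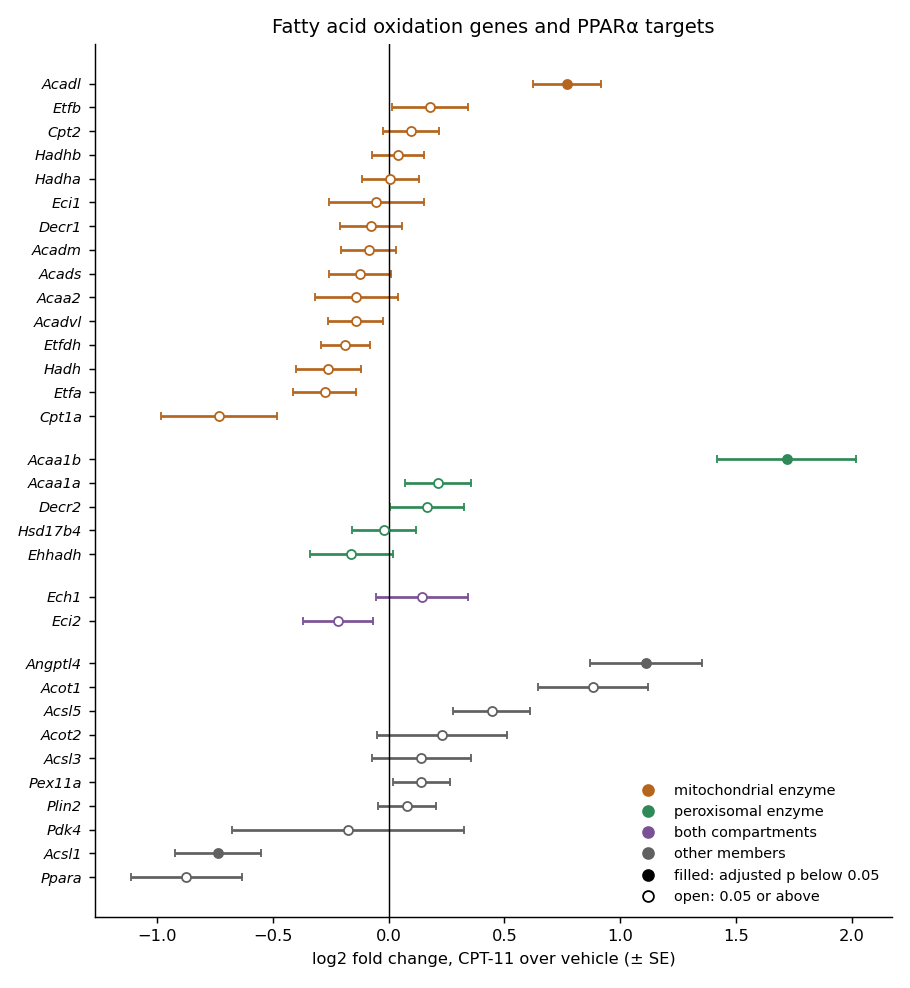
Log2 fold change, CPT-11 over vehicle, of each of the 32 genes, with bars for the standard error, grouped by compartment and sorted by fold change, with called genes filled. Acaa1b (1.72), Angptl4 (1.11) and Acadl (0.77) stand highest among the called genes, and most mitochondrial enzymes lie near 0.

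The receptor gene Ppara, on chromosome 15 (85734983 to 85802819, plus strand, GRCm38), had 32.4, 20.5, 48.6 and 24.5 CPM in CPT-11 libraries and 61.0, 56.9, 61.6 and 51.5 CPM in vehicle libraries. Every CPT-11 library lay below every vehicle library, and CPT-11 replicate 3 was the nearest to the vehicle range. The log2 fold change was -0.87 ± 0.24 (SE) and the adjusted p of edgeR's test was 0.0646, just past the threshold, so Ppara is not called. It did pass in 6 of 19 alternatives, where the adjusted p went as low as 0.00727, on leaving out CPT-11 replicate 3; across all alternatives it went as high as 0.172, on leaving out vehicle replicate 1. Without CPT-11 replicates 2 and 4 its log2 fold change was -0.51, with an adjusted p of 0.0769.

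The acyl-CoA synthetases, which activate fatty acids, differed in sign. Acsl1 (chromosome 8, 46471037 to 46536051, plus strand) had 33.7, 21.2, 35.5 and 25.9 CPM in CPT-11 libraries and 49.6, 58.5, 43.0 and 42.7 CPM in vehicle libraries. It was lower in every CPT-11 library, replicate 2 being the lowest, and its log2 fold change was -0.74 ± 0.19 with an adjusted p of 0.0493 by edgeR. This call was the least steady of the 4, since the adjusted p was 0.0503 under upper-quartile scaling, 0.0510 with the unnamed rows of the table included, and 0.137 without vehicle replicate 1. Leaving out CPT-11 replicate 1 (0.0751) or 4 (0.113), or vehicle replicate 2 (0.124), 3 (0.103) or 4 (0.0807), also ended it. Without CPT-11 replicates 2 and 4 the log2 fold change was -0.48, with an adjusted p of 0.0599.

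Acsl5, an acyl-CoA synthetase abundant in small intestine, averaged 738 ± 114 CPM in CPT-11 libraries and 542 ± 67.8 CPM in vehicle libraries (SD, n = 4 each). Its log2 fold change was 0.45 ± 0.17 with an adjusted p of 0.141 by edgeR, and it was called under DESeq2 (0.0427) and without CPT-11 replicates 2 and 4 (0.0406). The gene overlaps Zdhhc6 on the other strand, and the sources used here do not say whether counting used strand. Acsl3 averaged 25.6 ± 7.48 CPM in CPT-11 libraries and 23.3 ± 2.58 CPM in vehicle libraries (log2 fold change 0.14, adjusted p = 0.700 by edgeR). Neither passed the test on all 8 libraries.

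In the carnitine shuttle, Cpt1a encodes the outer membrane carnitine palmitoyltransferase that is regarded as the gate of mitochondrial fatty acid entry. It had 109, 61.8, 165 and 117 CPM in CPT-11 libraries and 193, 174, 175 and 212 CPM in vehicle libraries. All 4 CPT-11 libraries were lower than all 4 vehicle libraries, although replicate 3 came close. Its log2 fold change of -0.73 ± 0.25 had an adjusted p of 0.114 by edgeR, and the gene was called in 2 of 19 alternatives. Those were DESeq2 (0.0431) and leaving out CPT-11 replicate 3 (0.0280). Without CPT-11 replicates 2 and 4 the log2 fold change was -0.45, with an adjusted p of 0.120. Cpt2, the inner membrane enzyme, averaged 119 ± 9.65 CPM in CPT-11 libraries and 112 ± 10.6 CPM in vehicle libraries (log2 fold change 0.10 ± 0.12).

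The acyl-CoA dehydrogenases carry out the first step of each mitochondrial cycle on chains of falling length. Acadl, which takes long chains in mice, lies on chromosome 1 (66830839 to 66863277, minus strand). It had 79.4, 69.9, 86.6 and 96.1 CPM in CPT-11 libraries and 47.7, 41.6, 46.6 and 58.5 CPM in vehicle libraries. The groups did not overlap, and within each group replicate 4 was the highest. The log2 fold change was 0.77 ± 0.15, a 1.71-fold rise with an adjusted p of 0.0172 by edgeR. The call was lost without vehicle replicate 1 (0.0649), 2 (0.0591) or 3 (0.0729). The other 3 dehydrogenases did not follow. Acadvl, for very long chains, had a log2 fold change of -0.14 ± 0.12, Acadm, for medium chains, one of -0.09 ± 0.12, and Acads, for short chains, one of -0.13 ± 0.13. None of these 3 was called.

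**Figure D2:**
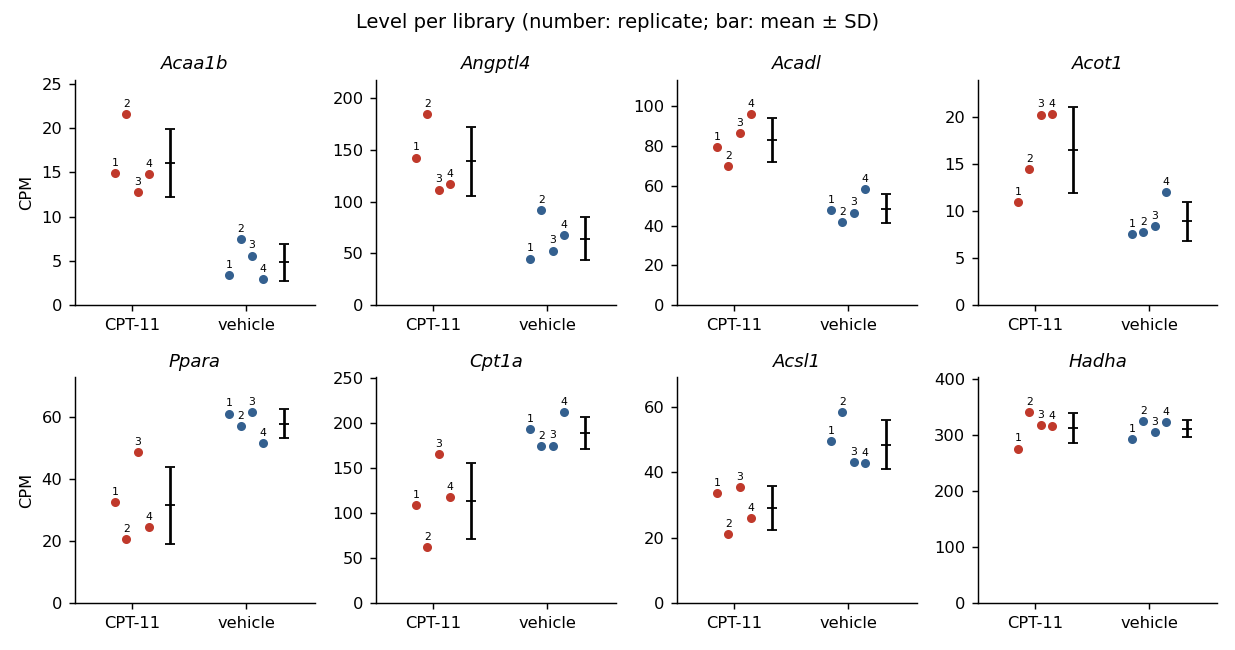
CPM in each library (numbered points) with the mean and SD at the right of each group, for 8 genes. Acaa1b, Angptl4 and Acadl separate fully upward, Ppara, Cpt1a and Acsl1 separate fully downward, Acot1 overlaps, and Hadha is level.

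Of the later steps of the mitochondrial cycle, the trifunctional protein genes were close to level. Hadha averaged 313 ± 27.2 CPM in CPT-11 libraries and 311 ± 15.2 CPM in vehicle libraries, and Hadhb averaged 164 ± 10.4 CPM in CPT-11 libraries and 160 ± 8.80 CPM in vehicle libraries. Their log2 fold changes were 0.0071 ± 0.12 and 0.04 ± 0.11. These subunit genes share the start region printed above, and both lay within their spread. Hadhb shares 62.4% of its 50-base windows with other transcripts, mostly the gene model Gm13910, so its level is less certain.

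Hadh, the hydroxyacyl-CoA dehydrogenase for short and medium chains, was the most abundant of the 32 genes per length. It had 244 ± 15.9 CPM per kilobase in CPT-11 libraries and 293 ± 36.3 CPM per kilobase in vehicle libraries. Its level was lower in every CPT-11 library, with a log2 fold change of -0.26 ± 0.14 and an adjusted p of 0.277 by edgeR. For Acaa2, the mitochondrial thiolase, the log2 fold change was -0.14 ± 0.18 (adjusted p = 0.651 by edgeR). Without CPT-11 replicates 2 and 4 that value was -0.46 with an adjusted p of 0.0377, which is a call on 2 CPT-11 libraries. Among auxiliary enzymes for unsaturated chains, Decr1, a dienoyl-CoA reductase, and Eci1, an enoyl-CoA isomerase, had log2 fold changes of -0.08 ± 0.13 and -0.05 ± 0.20. Without CPT-11 replicates 2 and 4 these were -0.25 for Decr1 and -0.40 for Eci1, with adjusted p of 0.200 and 0.0520 by edgeR. With the gene length trend removed they were -0.03 and -0.32.

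The electron transfer flavoprotein chain takes electrons from the dehydrogenases to ubiquinone. Its subunit genes Etfa and Etfb had log2 fold changes of -0.28 ± 0.13 and 0.18 ± 0.16, and Etfdh, the ubiquinone oxidoreductase, had -0.19 ± 0.11. All CPT-11 libraries (76.0 to 86.6 CPM) lay below all vehicle libraries (87.6 to 98.9 CPM) for Etfdh, with an adjusted p of 0.298 by edgeR. Etfb shares 67.3% of its 50-base windows with the overlapping gene model Gm45233. None of the 3 was called.

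The peroxisomal enzymes gave 1 call of 5. Acaa1b, a peroxisomal ketoacyl-CoA thiolase that ends each peroxisomal cycle, lies on chromosome 9 (119148023 to 119157093, minus strand). It had 14.9, 21.6, 12.8 and 14.8 CPM in CPT-11 libraries and 3.39, 7.49, 5.61 and 2.99 CPM in vehicle libraries. Every CPT-11 library stood above every vehicle library, and replicate 2 was the highest of each group. The log2 fold change was 1.72 ± 0.30, a 3.29-fold rise and the highest of the 32 genes, with an adjusted p of 0.0126 by edgeR. The adjusted p was 0.0515 without vehicle replicate 1 and 0.0284 without CPT-11 replicates 2 and 4.

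Its near copy Acaa1a (chromosome 9, 119339676 to 119350299, plus strand) is the more abundant thiolase. It had 155, 207, 177 and 177 CPM in CPT-11 libraries and 128, 179, 150 and 160 CPM in vehicle libraries. The groups overlapped, and the log2 fold change was 0.21 ± 0.14 (adjusted p = 0.374 by edgeR). Since 35.6% of the 50-base windows of Acaa1b also occur in Acaa1a, the estimated counts could split reads between them, so the pair was also taken as shares and as a sum. Acaa1b made up 8.79, 9.46, 6.75 and 7.70% of the pair in CPT-11 libraries and 2.58, 4.01, 3.60 and 1.84% in vehicle libraries. The log2 ratio of Acaa1b to Acaa1a was higher by 1.46, with an exact two-sided permutation p of 0.0286, the smallest that 4 against 4 allows, and 0.0571 adjusted over the 2 pairs compared. This ratio test was chosen after the counts had been seen. Summed, the pair gave a log2 fold change of 0.29 with edgeR's adjusted p at 0.247. Acaa1b also overlaps Dlec1 on the other strand, which had 0.140 CPM on average in CPT-11 libraries and 0.0915 CPM in vehicle libraries, and Acaa1a overlaps Myd88, with 28.7 CPM in CPT-11 libraries and 27.3 CPM in vehicle libraries.

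**Figure D3:**
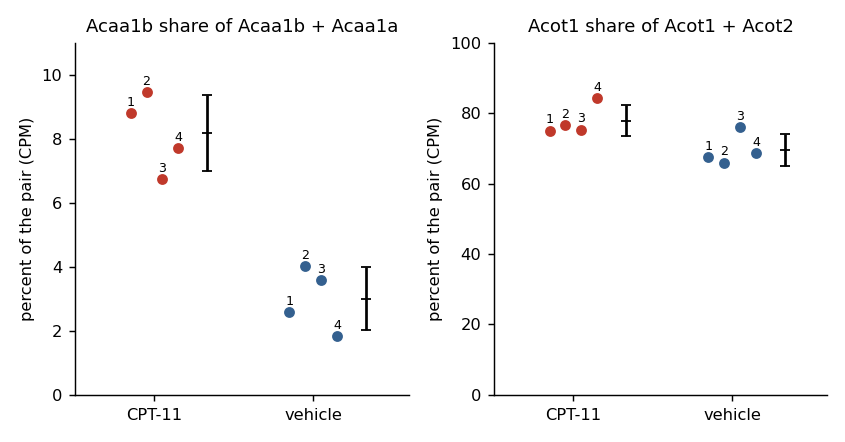
Share of Acaa1b in the Acaa1b and Acaa1a pair, and of Acot1 in the Acot1 and Acot2 pair, in percent of the CPM of the pair in each library, with mean and SD. The Acaa1b share averages 8.17% in CPT-11 libraries and 3.01% in vehicle libraries without overlap, and the Acot1 shares overlap.

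The other peroxisomal enzymes stayed within their spread. Ehhadh, the L-bifunctional enzyme, had 72.8, 46.6, 86.7 and 64.9 CPM in CPT-11 libraries and 76.2, 81.9, 77.4 and 67.7 CPM in vehicle libraries. CPT-11 replicates 2 and 3 were the lowest and the highest of all 8. Its log2 fold change was -0.16 ± 0.18, the lowest of the compartment. Hsd17b4, the D-bifunctional enzyme, had -0.02 ± 0.14, and Decr2, the peroxisomal dienoyl-CoA reductase, had 0.17 ± 0.16.

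The isomerases found in both compartments handle double bonds of unsaturated chains. Ech1 had 150, 271, 147 and 196 CPM in CPT-11 libraries and 154, 184, 185 and 168 CPM in vehicle libraries, with replicate 2 far above the rest of its group (log2 fold change 0.15 ± 0.20). Eci2 had 45.9, 33.2, 47.9 and 54.6 CPM in CPT-11 libraries and 51.1, 55.0, 51.3 and 54.2 CPM in vehicle libraries, with replicate 2 the lowest (log2 fold change -0.22 ± 0.15). Both sets overlapped and neither was called. For the 2 genes, CPT-11 replicate 2 was at opposite ends of its group.

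Mitochondrial and peroxisomal enzymes were set side by side. Of the 15 mitochondrial enzymes, 1 was called higher and none lower, 10 had a negative fold change, and the median log2 fold change was -0.09 (range -0.73 to 0.77). Of the 5 peroxisomal enzymes, 1 was called higher and none lower, and the median was 0.17 (range -0.16 to 1.72). The median of the other 4 peroxisomal enzymes was 0.07 without Acaa1b (range -0.16 to 0.21), a choice made after the values were seen, and with the thiolase pair summed to 1 gene the median was also 0.07. The median of the 5 was 0.024 without CPT-11 replicate 2 and 0.080 without CPT-11 replicates 2 and 4. In the same settings the mitochondrial median was also lower, at -0.11 and -0.18. With the gene length trend removed, the medians were 0.089 for peroxisomal and -0.19 for mitochondrial enzymes. All genes tested had a median of 0.01, and 6823 of the 14011 had a negative fold change. Of all genes tested, 2.98% were called higher and 2.52% lower.

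Per library, the mean log2(CPM + 0.5) of the mitochondrial enzymes stood above that of the peroxisomal enzymes by 0.88 ± 0.16 in CPT-11 libraries and 1.32 ± 0.19 in vehicle libraries (SD, n = 4 each). The gap was 0.72 to 1.10 in CPT-11 libraries and 1.11 to 1.55 in vehicle libraries, so it was narrower in every CPT-11 library, by a margin of 0.01. Without Acaa1b it was 0.36 ± 0.15 in CPT-11 libraries and 0.48 ± 0.11 in vehicle libraries, and the groups overlapped. Even so, CPT-11 replicates 1 to 3 (0.313, 0.274 and 0.270) lay below the lowest vehicle library (0.355), and CPT-11 replicate 4 (0.586) did not. As a difference from the vehicle mean, the gap in CPT-11 libraries averaged -0.44 with Acaa1b and -0.12 without it. Much of the narrower gap between the compartments thus came from Acaa1b, which is among the least abundant genes of the set. No test was made of these means, since the genes were chosen with results known.

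**Figure D4:**
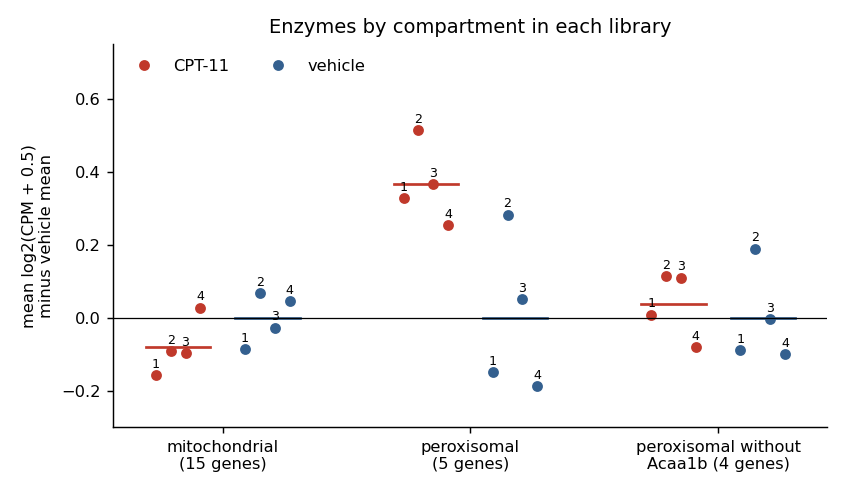
Mean log2(CPM + 0.5) of the enzymes of each compartment in each library (numbered points), as the difference from the vehicle mean, with lines at the group means. The peroxisomal enzymes average 0.37 higher in CPT-11 libraries, and 0.04 higher once Acaa1b is left out.

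The acyl-CoA thioesterases, which release free fatty acids from coenzyme A, had their higher value in Acot1, the cytosolic form. Acot1 had 10.9, 14.5, 20.3 and 20.3 CPM in CPT-11 libraries and 7.55, 7.81, 8.45 and 12.0 CPM in vehicle libraries. CPT-11 replicate 1 lay below vehicle replicate 4, so the groups overlapped. The log2 fold change was 0.88 ± 0.24 with an adjusted p of 0.0604 by edgeR, and the gene was called in 6 of 18 alternatives. Acot2, the mitochondrial form, had 3.64, 4.44, 6.64 and 3.79 CPM in CPT-11 libraries and 3.63, 4.03, 2.65 and 5.51 CPM in vehicle libraries (log2 fold change 0.23 ± 0.28). Acot2 was the lowest of the 32 genes per length. Acot1 made up 77.8 ± 4.38% of the pair in CPT-11 libraries and 69.5 ± 4.51% in vehicle libraries (exact two-sided permutation p = 0.0571, and 0.0571 adjusted over the 2 pairs). The genes share 24.5% of the windows of Acot2, and their sum had a log2 fold change of 0.71 and an adjusted p of 0.0971 by edgeR.

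Of the other PPARα targets, Angptl4 was the one that rose. It encodes a secreted inhibitor of lipoprotein lipase and lies on chromosome 17 (33773750 to 33781830, minus strand). It had 142, 184, 111 and 117 CPM in CPT-11 libraries and 45.0, 91.6, 52.6 and 67.4 CPM in vehicle libraries. The groups did not overlap, and replicate 2 was the highest in each. The log2 fold change was 1.11 ± 0.24, a 2.16-fold rise with an adjusted p of 0.0296 by edgeR. Leaving out CPT-11 replicate 1 (0.0721) or 4 (0.0517), or vehicle replicate 1 (0.0907), 3 (0.109) or 4 (0.0743), ended the call, as did leaving out CPT-11 replicates 2 and 4 together (0.0856). Angptl4 is also made by adipocytes, and their part in its level was not tested. Of the 6 adipocyte markers, Adipoq had 0 to 5 counts per library, Lep 0 to 1 and Plin1 0 to 1.99. Retn had 0 to 4 counts, Cfd 0 to 31 and Cidec 234 to 927. Cidec, the only one tested, had a log2 fold change of 0.90. Its unadjusted p was below 0.05 in edgeR's test, and it was not called. The list's summed level was 15.4 to 39.0 CPM in CPT-11 libraries and 10.3 to 20.7 CPM in vehicle libraries, mostly from Cidec.

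Pdk4, which restrains pyruvate dehydrogenase, was the most variable gene of the set. It had 23.5, 8.33, 19.6 and 6.43 CPM in CPT-11 libraries and 15.8, 31.1, 11.7 and 7.12 CPM in vehicle libraries, which overlapped throughout (log2 fold change -0.17 ± 0.50). Plin2, a lipid droplet coat protein, and Pex11a, a peroxisome division protein, had log2 fold changes of 0.08 ± 0.13 and 0.14 ± 0.12. Of the 4 other targets, 3 therefore gave no call.

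**Figure D5:**
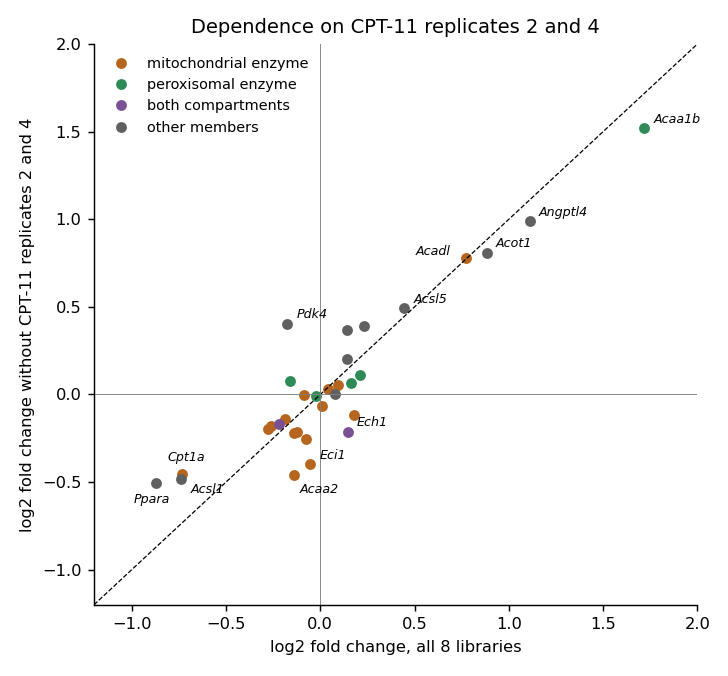
Log2 fold change of each of the 32 genes from all 8 libraries (horizontal) against that without CPT-11 replicates 2 and 4 (vertical), with the dashed line of equality. Acaa1b, Angptl4 and Acadl stay near the line, Ppara, Cpt1a and Acsl1 lie closer to 0 without the 2 libraries, and Pdk4, at -0.17 and 0.40, changes sign.

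Levels per length placed Hadh first in both groups, and Acot2 last. Behind Hadh, Acsl5, Ech1 and Etfb followed at 174 ± 26.9, 151 ± 45.6 and 150 ± 32.9 CPM per kilobase in CPT-11 libraries, and at 128 ± 16.0, 136 ± 11.4 and 133 ± 8.58 CPM per kilobase in vehicle libraries. These 3 neighbours do not differ beyond their spread. Acadl was at place 16 of the 32 in CPT-11 libraries and at place 22 in vehicle libraries, and Cpt1a was at place 22 in CPT-11 libraries and at place 16 in vehicle libraries.

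The genes varied more among CPT-11 libraries. Their median coefficient of variation was 17.6% in CPT-11 libraries and 9.51% in vehicle libraries, against 24.2% and 12.0% over all genes tested. It was higher with CPT-11 in 23 of the 32, where 79.9% of all genes tested had the higher value there. CPT-11 replicate 2 was the lowest of its group in 12 of the 32 genes and the highest in 11. Vehicle replicate 2 was the highest of its group in 23, and vehicle replicate 1 was the lowest in 18. These counts were not set against those over all genes tested, so they may describe the libraries as a whole.

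Other genes of the same pathways were read from lists of their own. Of 23 further mitochondrial oxidation and ketogenesis genes, all tested, none was called higher and 1 lower, with a median log2 fold change of -0.07. The list holds Eci3, whose product is a peroxisomal isomerase and which had the list's highest log2 fold change, 0.94 (adjusted p = 0.0644 by edgeR). Without Eci3, left out after its value was seen, the median of the 22 genes was -0.10. The one that fell was Acat1, the mitochondrial acetoacetyl-CoA thiolase, with 97.8 ± 14.3 CPM in CPT-11 libraries and 153 ± 5.34 CPM in vehicle libraries (log2 fold change -0.65 ± 0.13, adjusted p = 0.0220 by edgeR). Of 38 further peroxisomal genes, 37 were tested, 1 was called higher and none lower, and the median was 0.03. That one was Acot4, a peroxisomal thioesterase, with 26.2 ± 4.10 CPM in CPT-11 libraries and 16.6 ± 1.87 CPM in vehicle libraries (log2 fold change 0.65 ± 0.15, adjusted p = 0.0374 by edgeR).

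Of 58 further PPAR targets, partners and fatty acid handling genes, 43 were tested, 4 were called higher and 3 lower, and the median was 0.06. The desaturase genes Fads1 and Fads2 fell, with log2 fold changes of -1.18 ± 0.14 and -0.87 ± 0.18, as did Slc27a2, an acyl-CoA synthetase and fatty acid transporter, at -0.70 ± 0.15. Vnn1, a pantetheinase, rose with a log2 fold change of 0.99 ± 0.20, and the thioesterase Acot9 rose with 0.72 ± 0.13. The thioesterase Acot7 also rose (0.73 ± 0.18). The remaining one was Fabp2, the intestinal fatty acid binding protein, at 6743, 19046, 6228 and 4628 CPM in CPT-11 libraries and 2003, 2890, 1783 and 2818 CPM in vehicle libraries. Replicate 2 was by far its highest library, and its log2 fold change was 1.95 ± 0.44, against 1.32 without that library. Adjusted p-values by edgeR were 0.00220 for Fads1, 0.0141 for Acot9, 0.0232 for Vnn1, 0.0241 for Fads2, 0.0250 for Slc27a2, 0.0337 for Fabp2 and 0.0493 for Acot7. Fads1 kept its call in every alternative run. Leaving out single libraries ended the calls of Acat1 (up to 0.0742), Acot4 (0.131), Acot9 (0.0657), Vnn1 (0.0928), Fads2 (0.0890), Slc27a2 (0.0794) and Fabp2 (0.120). Vehicle replicates 1, 3 and 4 were among these libraries in each case. Acot7 was not rerun. The Acot4 call was also lost with no filter on low counts (0.0510). Of the 15 untested genes, Cyp4a14 and Cyp4a12a had no count in any library, and Cyp4a10, a classical liver PPARα target, had 0 to 5 counts.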

How the data were processed

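Per the labels' protocols, total RNA of dissociated ileal crypts was sequenced with standard Illumina libraries. Per the submitters' processing notes, Bowtie2 2.4.1 and GRCm38.p6 were used. The sources used here give neither the tool that made the counts nor its strand setting. The authors deposited estimated counts, not normalized, for each gene, with 10.3% to 11.1% of values not whole (no tolerance) in each library. The table also lists each gene's length in bases (per the file headers), used here for levels per kilobase. The 543 of 56030 rows with no gene name held 0.325% to 0.662% of counts and entered neither library sizes nor tests.

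Estimated counts were rounded. The test was that of edgeR 4.0.16 under R 4.3.3 (TMM, filterByExpr with a minimum count of 10 and total of 15, robust quasi-likelihood F test, two-sided, no covariate) on all 8 libraries, 4 a group, with Benjamini-Hochberg adjustment over 14011 genes and a threshold of 0.05. SE is the log2 fold change divided by the root of F. CPM used TMM-scaled library sizes. Means over genes used log2(CPM + 0.5). Gene coordinates are from GENCODE M21 on GRCm38 and shared windows were 50 bases of the longest coding transcript. No interval is given beyond the spread between libraries.

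The members and lists were chosen with earlier results of these data known. Every member is named, with values per library for called genes, Ppara, the 2 paralog pairs and the highest and lowest fold change in each compartment; of each other list, the called genes with the smallest p, at most 6. Acot7, the Cyp4a genes and the printed promoters were picked after values were seen. The alternatives were other scalings, filters, DESeq2 1.42.0, limma-voom (limma 3.58.1), a replicate block, each library left out, CPT-11 replicates 2 and 4 left out, removal of the gene length trend and summed paralogs. Inclusion of the unnamed rows and the sets without Acaa1b or Eci3 were chosen after seeing the data. Tested on simulated data, the edgeR script returned the right signs and sizes and few false calls, but missed some changed genes, more of them at low counts and small changes, and fell short of the recovery first asked of it.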

Additional observations from a re-analysis of the deposited data

Results flagged for a closer look

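Etfa, an electron transfer flavoprotein subunit, stood apart in 1 vehicle library. It had 106.5 CPM in vehicle replicate 3, below the other vehicle libraries at 118.8 to 121.2 CPM. The gap took 0.834 of the group's range, just over Dixon's critical value for 4 libraries. Chance sets off this rule in about 1 in 20 groups, and it was applied to 64 groups (32 genes in 2 groups). CPT-11 libraries had 76.5 to 106.5 CPM.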

How the results depend on the processing

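Over the 32 genes and all alternatives there were 604 values, of which 542 kept their direction and side of the threshold, 20 lost a call, 17 gained one and 25 in 11 genes changed sign, with a smallest adjusted p of 0.280 among these. The count of genes raised was 5 under DESeq2 and 0 to 4 with each library left out. The count lowered was 0 under upper-quartile scaling and with the unnamed rows included, 2 with no filter, under limma-voom and with the length trend removed, 3 under DESeq2, and 0 to 3 with each library left out. The mitochondrial median was -0.18 without CPT-11 replicates 2 and 4 and -0.19 with the length trend removed. Signs changed without CPT-11 replicates 2 and 4 for Hadha (-0.063), Etfb (-0.11), Ehhadh (0.080), Ech1 (-0.21) and Pdk4 (0.40), with the length trend removed for Hadhb (-0.022), Etfb (-0.11), Ech1 (-0.086) and Plin2 (-0.0041), and with no filter for Hadha (-0.020). With each library left out, the log2 fold change ran from -0.29 to 0.071 for Eci1, -0.026 to 0.062 for Hadha, -0.060 to 0.25 for Ech1, -0.51 to 0.32 for Pdk4, -0.031 to 0.32 for Acsl3, -0.0017 to 0.43 for Acot2 and -0.077 to 0.054 for Hsd17b4. DESeq2 called 1045 genes higher and 839 lower over the whole table, against 417 and 353 in the main fit. With each library left out, 132 to 769 of all genes were called higher and 104 to 753 lower. The fewest were called without vehicle replicate 1 (132 and 108) or 3 (132 and 104), so calls were lost over the whole table as well as in this set. With the replicate number as a block, 4 of the 32 were raised and 1 lowered, and 397 and 289 of all genes were called; the added call lowered was Ppara (0.0392) in place of Acsl1 (0.0800). The block also added Acot1 (0.0386) and ended the call of Acot4 (0.0606). The labels do not say that a number marks a shared source, and deviations of same-numbered libraries correlated at 0.310, 0.166, -0.158 and 0.121, with 2 of 4 closest to their own number. Since 1 of the 4 was negative the libraries were not taken as paired, though a partial pairing cannot be told apart from none. The cause of these changes was not tested. At these depths, Acot2 and Acaa1b rest on the fewest counts.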
